A study of Mus musculus with 60 samples.

Results

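The T cell receptor (TCR) beta repertoire of donor CD8 T cells was compared between the gut and the liver of mice after an MHC-mismatched transplant, as part of a study of graft-versus-host disease. The members are the gut and liver columns of the deposited CD8 TCR beta (TCRB) table, chosen by tissue label alone. They are 12 of the 60 libraries of the series, 6 from gut and 6 from liver, and the table they come from holds 15 libraries and 82447 clonotypes. Lethally irradiated BALB/c mice received T cell-depleted marrow of wild-type (WT) C57BL/6 mice together with CD90.2+ T cells of C57BL/6 donors of 3 genotypes. The donor T cells were WT, lacked the transcription factor STAT3 (STAT3ko), or lacked both STAT3 and the inhibitory receptor PD-1 (STAT3koPD-1ko). All recipients were BALB/c with unaltered genes, all had the same marrow, and all 12 libraries were labelled day 6 after hematopoietic cell transplantation (HCT). STAT3 was deleted by a Cre under the Cd4 promoter, which is active in the thymus before the CD4 and CD8 lineages part, so the CD8 T cells lack STAT3 although they carry no CD4. Lymphocytes of liver or gut were pooled from 3 recipients per sample, and H-2Kb+TCRβ+CD8+ cells, which carry the donor form of the class I molecule, were sorted. The methods describe isolation from colon and from small intestine, and how these made up a gut sample is not given in the sources used here. Each combination of tissue and genotype had 2 libraries, numbered 1 and 2 in the labels, and 3 further libraries of the table, 1 per genotype, were labelled as spleen T cells before HCT. The tables hold no marker genes, so the sorted cell type could not be checked by its transcripts.

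The beta chain of the TCR is assembled in the thymus from 1 V, 1 D and 1 J segment, and bases are trimmed and added at the joints. The joint encodes complementarity determining region 3 (CDR3), the loop that lies over the peptide in the groove of the MHC molecule, while the rest of the V segment mainly contacts the MHC molecule itself. In an MHC-mismatched transplant many donor T cells respond to the recipient's MHC molecules, and such cells can damage gut and liver. BALB/c mice also carry endogenous mammary tumour virus superantigens, which are presented by the class II molecule I-E that C57BL/6 mice lack, and which bind T cells through particular V segments whatever the CDR3.

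Reads with the same CDR3 peptide and the same V and J segments were joined into 1 clonotype, whose value is the fraction of the reads of a library that carried it. The fractions come without read counts, so the sequencing depth is unknown and no interval for counting error can be given. A value of 0 says only that the clonotype is listed at 0. The table lists clonotypes found in at least 2 of the 18 samples joined, and usage is given as percent of the listed frequency of a library. The V segments lie in the TCRB locus on mouse chromosome 6 (build mm10, plus strand, GENCODE annotation): TRBV26 at 41227505 to 41227993, TRBV5 at 41062332 to 41062803, TRBV2 at 41047340 to 41047995, TRBV1 at 40891229 to 40891885, TRBV20 at 41188273 to 41188977 and TRBV29 at 41271394 to 41271881. The segment TRBD1 lies at 41533201 to 41533212, TRBD2 at 41542163 to 41542176 and TRBJ2-7 at 41543810 to 41543856. A library's replicate is its label number. The methods name 2 batches of pooled mice without tying them to the numbers, and nothing states that the numbers were separate experiments. The p-values therefore measure only the spread between these libraries.

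The CDR3 sequences of large clonotypes and of the most frequent TRBV26 clonotype are printed here, 5′ to 3′ as deposited. The results on single clonotypes below refer to them. Capitals mark the bases between the end of V and the start of J, a stretch that holds what remains of the D segment together with added bases. In the TRBV26 sequence, capitals run from the cysteine codon to the end, because the deposited CDR3 of this segment begins in the V segment, upstream of that cysteine.
TRBV13-3–TRBJ2-4, largest in gut: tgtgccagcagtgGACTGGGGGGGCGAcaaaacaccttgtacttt
TRBV29–TRBJ2-7, 45 bases: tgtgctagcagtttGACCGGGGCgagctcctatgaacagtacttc
TRBV29–TRBJ2-7, 36 bases: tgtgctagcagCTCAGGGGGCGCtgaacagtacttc
TRBV29–TRBJ2-4, largest in 1 liver library: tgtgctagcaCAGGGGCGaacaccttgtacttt
TRBV19–TRBJ2-7, in all 12 libraries: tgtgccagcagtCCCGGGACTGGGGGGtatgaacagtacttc
TRBV29–TRBJ1-1, in all 12 libraries: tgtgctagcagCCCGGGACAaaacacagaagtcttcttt
TRBV17–TRBJ2-7, in all 12 libraries: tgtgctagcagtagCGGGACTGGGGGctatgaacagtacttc
TRBV26–TRBJ1-1: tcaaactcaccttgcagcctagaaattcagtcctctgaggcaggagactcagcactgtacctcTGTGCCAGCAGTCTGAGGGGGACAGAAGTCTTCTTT

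The gut libraries fell into sets by label number, and this touches most of the results. The listed clonotypes held 93.2 to 96.3% of the reads in the 6 liver libraries. In gut number 1 they held 93.8% (WT), 91.8% (STAT3ko) and 81.5% (STAT3koPD-1ko), and in gut number 2 they held 53.2%, 58.0% and 53.2%. Gut number 2 also listed the fewest clonotypes, 11381, 8391 and 10441, against 25941, 26193 and 27168 in gut number 1 and 12413 to 20117 in liver. Of the listed frequency of gut number 2, 92.0%, 93.3% and 87.9% belonged to clonotypes that were also listed in a library of another genotype, whereas this share was 51.0 to 57.6% in every liver and gut number 1 library. The 323 clonotypes listed in all 12 libraries held 10.8 to 11.3% of the frequency of gut number 2 and 6.14 to 7.12% of that of the other 9 libraries. Those 323 clonotypes were short, with a mean CDR3 of 12.7 amino acids. Both shares are of listed frequency, so leaving clonotypes of a single sample unlisted raises them most where the listed share is lowest. They do not carry over to shares of all reads, which were not formed here. Every later value of gut number 2 as percent of listed frequency likewise describes only the listed part of its repertoire.

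The libraries also differed in which others they shared clonotypes with, measured by taking the lower of a clonotype's 2 frequencies and adding these up. Gut number 1 shared 27.5 to 39.4% with liver number 1 of the same genotype, 32.0 to 39.3% with liver number 2 of the same genotype, and 9.14 to 12.9% with liver libraries of another genotype. The clonotypes of both liver libraries of its genotype made up 95.6% (WT), 87.2% (STAT3ko) and 87.8% (STAT3koPD-1ko) of the frequency of gut number 1, although these liver libraries shared only 8.16 to 11.8% with each other. Gut number 2 shared 9.67 to 14.9% with liver of the same genotype and 10.3 to 15.4% with liver of another genotype, so its ranges for same and other genotypes lay over each other. Gut number 2 shared 13.4 to 16.7% with gut number 1 of the same genotype and 13.2 to 17.5% with that of another. The gut number 2 libraries shared 17.1 to 19.7% with each other, although each was of another genotype, which was above their share with any library of their own genotype. All these values are of listed frequency, and a low listed share in both libraries raises them. The ranking of the gut number 2 overlaps was not checked over all reads. Liver number 1 shared 41.3 to 55.9% with the spleen library of its genotype, and clonotypes of that spleen library held 84.0 to 86.8% of its frequency, against 17.4 to 20.2% in liver number 2. In the methods of the study 2 batches are named, but which library belonged to which is not given, and number and batch cannot be told apart. Gut number 1 thus held mostly clonotypes listed in a liver library of its genotype, gut number 2 shared as much with other genotypes as with its own, and liver number 1 held mostly clonotypes of the library labelled as spleen before HCT. Whether libraries were mixed or exchanged was not tested, and every gut against liver value below carries this limit. For the V segments, pairs and residues that passed the test, the difference within each number is given too.

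**Figure D1:**
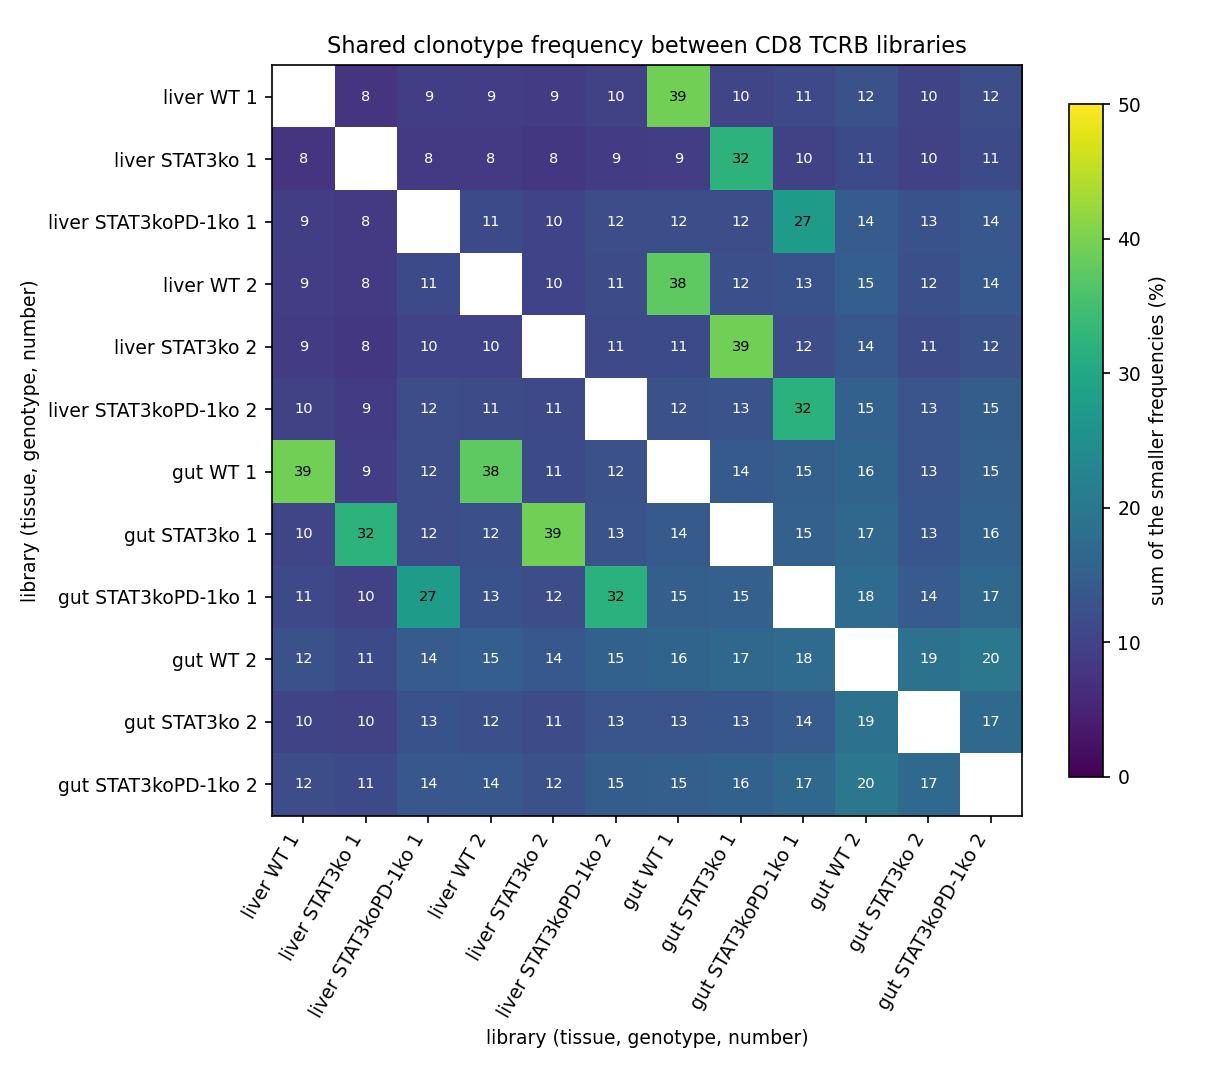
Percent of listed clonotype frequency shared by each pair of CD8 TCRB libraries, as the sum of the smaller frequencies, with the gut and liver libraries on both axes. Spleen libraries are not drawn. Gut number 1 shared 27.5 to 39.4% with both liver libraries of its own genotype, and gut number 2 shared at most 15.4% with any liver library.

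Most listed clonotypes were listed in some gut and some liver library when the libraries of each tissue were pooled over genotypes. Of the 82232 clonotypes listed in any of the 12 libraries, 60761 were listed in both gut and liver, 9731 in gut and no liver library, and 11740 in liver and no gut library. Since the table omits clonotypes of a single sample, these numbers do not count the clonotypes private to 1 library, and sharing is partly built in. By frequency, gut number 2 shared at most 15.4% with any 1 liver library. The paper reports that most expanded clonotypes differed between liver and gut, a set that was not formed here.

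TRBV5 made up less of the CD8 repertoire in gut than in liver, in every genotype and in both label numbers. Its usage in gut was 2.60% (WT), 3.54% (STAT3ko) and 3.74% (STAT3koPD-1ko) in number 1 and 3.28%, 4.22% and 2.96% in number 2. In liver it was 4.03%, 4.69% and 5.50% in number 1 and 4.46%, 4.90% and 5.02% in number 2. Both gut libraries lay below both liver libraries in 3 of 3 genotypes, although the pooled ranges touched between 4.03 and 4.22%. The mean was 3.39% ± 0.576 (SD, n = 6) in gut and 4.77% ± 0.501 (SD, n = 6) in liver, a log2 difference in usage of -0.49 ± 0.09 (SE) with a limma adjusted p of 0.00409. The difference was -0.52 within number 1 and -0.46 within number 2, with adjusted p of 0.000531 and 0.00151. Leaving out any 1 of the 12 libraries kept the call, with adjusted p of at most 0.0160, and so did restriction to clonotypes also listed in another genotype, at -0.35 with an adjusted p of 0.0310. Within that restriction it passed in neither number alone, at -0.41 (adjusted p = 0.0961) and -0.29 (adjusted p = 0.274). The spleen libraries labelled before HCT had 3.78% (WT), 4.25% (STAT3ko) and 5.06% (STAT3koPD-1ko).

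Over all V segments, 7 of the 18 with a mean usage of at least 0.5% passed the test (38.9%, adjusted p below 0.05 in limma on log2(percent + 0.1) with genotype in the fit), 3 higher (16.7%) and 4 lower (22.2%) in gut. The higher segments were TRBV26, TRBV14 and TRBV15, and the lower were TRBV5, TRBV2, TRBV19 and TRBV13-2. In none of the 18 (0%) did the gut and liver ranges stay apart. When frequencies were taken as percent of all reads instead of listed frequency, the median V segment moved from -0.01 to -0.43 log2, no segment was called higher, 8 of 18 were called lower (44.4%), and the differences of TRBV14 and TRBV15 turned to -0.17 each. This scaling lowers all segments of a library by the same factor and does not test 1 segment against others. The directions given here are therefore relative to the listed repertoire of each library. Within number 1, 3 of 18 V segments passed (16.7%), and within number 2, 5 did (27.8%). Of the 7 called over both numbers, TRBV5 alone passed within each. In the fits within each number, limma gave all 18 V segments the same standard error, 0.124 log2. These p-values, and those of the difference between numbers, therefore rest on a spread pooled over V segments.

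**Figure D2:**
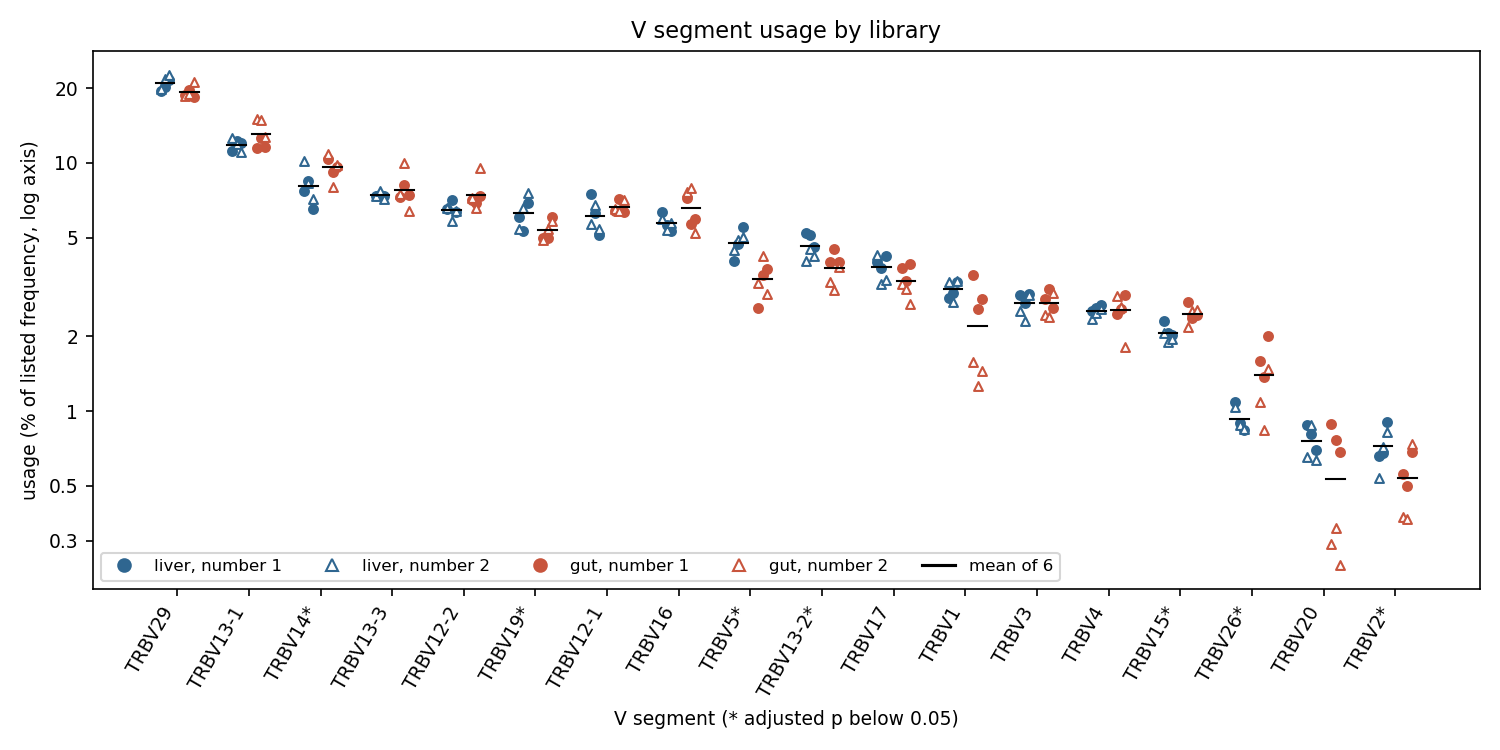
Usage of the 18 tested V segments in the 6 liver (blue) and 6 gut (red) libraries, as percent of listed frequency on a log axis. Filled circles are number 1, open triangles number 2, bars the means of 6 and asterisks an adjusted p below 0.05. The TRBV5 points of gut sit mostly below those of liver, and the TRBV1 and TRBV20 triangles of gut lie apart from all other points of their segments.

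TRBV2 followed TRBV5 in direction at a lower level. It was 0.557%, 0.498% and 0.686% in gut number 1, 0.376%, 0.367% and 0.733% in gut number 2, and 0.537 to 0.905% with a median of 0.697% in liver. All 6 gut libraries were below the liver mean of their genotype, and the ranges overlapped. The log2 difference in usage was -0.39 ± 0.10 (limma adjusted p = 0.0267), -0.31 within number 1 and -0.46 within number 2. The call was lost without liver STAT3koPD-1ko 1 (adjusted p = 0.0595) or liver STAT3ko 2 (adjusted p = 0.0608).

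TRBV19 and TRBV13-2 were lower in gut by less. TRBV19 ranged from 4.90 to 6.03% in gut with a median of 5.20%, and from 5.30 to 7.54% in liver with a median of 6.34%. All 6 gut libraries were below the liver mean of their genotype, at a log2 difference of -0.22 ± 0.07 (limma adjusted p = 0.0313). It passed in neither number alone, at -0.19 (adjusted p = 0.344) and -0.26 (adjusted p = 0.0734), and was -0.09 over clonotypes also listed in another genotype (adjusted p = 0.648). TRBV13-2 ranged from 3.06 to 4.52% in gut with a median of 3.89%, and from 4.01 to 5.21% in liver with a median of 4.54%. Again 6 of 6 gut libraries were lower, at -0.28 ± 0.11 (limma adjusted p = 0.0493), with -0.25 within number 1 (adjusted p = 0.168) and -0.32 within number 2 (adjusted p = 0.0395). TRBV13-2 has close relatives, TRBV13-1 and TRBV13-3, which did not pass the test: TRBV13-1 averaged 13.04% ± 1.54 in gut and 11.8% ± 0.621 in liver (SD, n = 6), and TRBV13-3 averaged 7.79% ± 1.21 and 7.40% ± 0.172. The family of 3 thus had 1 member past the test, where 38.9% of all V segments passed, with a median difference of 0.06 against -0.01 over all 18 segments.

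The V segments that recognise the endogenous superantigens of BALB/c mice are TRBV26, TRBV12-1, TRBV12-2, TRBV16 and TRBV15. All 5 had fitted differences above 0, 2 of 5 passed the test, where 38.9% of all V segments did, and their median was 0.19 against -0.01 over the 18 segments. The share called was thus near that of all V segments. Within number 1, 1 of 5 passed, where 16.7% of all V segments did, and within number 2, where 27.8% of all V segments did, none of the list passed (0 of 5, with limma adjusted p of at least 0.0627 and 4 at an unadjusted p below 0.05). Without clonotypes that were also listed in any CD4 TCRB library, 4 of 5 were above 0 and 1 of 5 passed, where 16.7% of all V segments did, with a median of 0.16.

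TRBV26 was 1.59% (WT), 1.37% (STAT3ko) and 2.01% (STAT3koPD-1ko) in gut number 1 and 1.08%, 0.840% and 1.48% in gut number 2. In liver it lay between 0.838 and 1.09% with a median of 0.886%. The 3 libraries of gut number 1 and gut STAT3koPD-1ko 2 lay above all liver libraries, gut WT 2 lay just below the highest of them, and gut STAT3ko 2 lay next to the lowest. The log2 difference in usage was 0.50 ± 0.15 (limma adjusted p = 0.0313), with 5 of 6 gut libraries above the liver mean of their genotype. It was 0.75 within number 1 (adjusted p = 3.99e-07) and 0.25 within number 2 (adjusted p = 0.0734), and these differed from each other by -0.50 (adjusted p = 0.0303). The p-values by number rest on the spread pooled over V segments, not on that of TRBV26 alone.

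Restricted to clonotypes also listed in another genotype, TRBV26 separated the tissues. It was 1.12% (WT), 1.17% (STAT3ko) and 2.10% (STAT3koPD-1ko) in gut number 1 and 1.03%, 0.788% and 1.47% in gut number 2, and 0.377 to 0.655% in liver. All gut libraries lay above all liver libraries, and the highest in each gut number was STAT3koPD-1ko. The log2 difference was 1.12 (limma adjusted p = 2.12e-07), with 1.38 within number 1 and 0.87 within number 2. In this restriction the difference between tissues also varied with genotype (adjusted p = 9.72e-05), the only such call among V segments, J segments and pairs there. The restriction was chosen after seeing the data. Without it, the limma test of tissue by genotype gave TRBV26 an adjusted p of 0.959.

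A part of the TRBV26 usage was carried by clonotypes that were also found in CD4 T cells. Clonotypes listed in any CD4 TCRB library held 47.1 to 71.8% of the TRBV26 frequency of the gut libraries and 38.6 to 44.6% of that of the liver libraries, whereas they held 8.68 to 17.5% of all frequency in the 12 libraries. In the CD4 TCRB table TRBV26 made up 22.6 to 28.0% of the gut libraries, 7.12 to 12.4% of the liver libraries and 4.45 to 5.68% of the spleen libraries, values that were formed in another table and were not tested against those of CD8. Without the clonotypes listed in CD4, TRBV26 usage in CD8 was 0.811 to 0.979% in gut number 1, 0.323 to 0.499% in gut number 2 and 0.533 to 0.744% in liver. All gut number 1 libraries then lay above all liver libraries and all gut number 2 libraries below them, and the fitted difference was -0.015 (limma adjusted p = 0.945). A CD8 and a CD4 T cell can carry the same beta chain, so the shared clonotypes do not by themselves count CD4 T cells in the sort, and the part of sorting in the result was not tested. TRBV5 kept its difference without these clonotypes, at -0.56 (adjusted p = 0.00162), as did TRBV2 (adjusted p = 0.0214) and TRBV15 (adjusted p = 0.0472), the 3 V segments of 18 that passed there (16.7%).

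TRBV15 ranged from 2.17 to 2.75% in gut with a median of 2.48%, and from 1.91 to 2.31% in liver with a median of 2.05%. Of the gut libraries 5 of 6 were above the liver mean of their genotype, and the log2 difference in usage was 0.25 ± 0.07 (limma adjusted p = 0.0284), 0.23 within number 1 and 0.27 within number 2, where it did not pass (adjusted p = 0.205 and 0.0734). TRBV12-2 ranged from 6.56 to 9.56% in gut and from 5.85 to 7.12% in liver, at 0.19 (adjusted p = 0.0917). Here 6 of 6 gut libraries were above the liver mean of their genotype, and gut STAT3koPD-1ko 2 stood at the top. TRBV16 averaged 6.60% ± 1.13 in gut and 5.72% ± 0.383 in liver (SD, n = 6), at 0.19 (adjusted p = 0.0917). TRBV12-1 averaged 6.64% ± 0.359 and 6.12% ± 0.901, at 0.13 (adjusted p = 0.219). These last 3 did not pass the test. TRBV12-1 and TRBV12-2 are similar in sequence, and how reads that could align to both were shared between them is not given in the sources used here.

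TRBV14 is not on the superantigen list. It was 7.96 to 10.9% in gut with a median of 9.75%, and 6.52 to 10.2% in liver with a median of 8.02%. The ranges overlapped, since liver WT 2 reached 10.2%, and 5 of 6 gut libraries were above the liver mean of their genotype. The log2 difference in usage was 0.26 ± 0.09 (limma adjusted p = 0.0492), 0.37 within number 1 (adjusted p = 0.0218) and 0.16 within number 2 (adjusted p = 0.252).

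Single libraries decided several of these calls. The number of called V segments was 1, TRBV5 alone, without liver STAT3koPD-1ko 1 or without liver STAT3ko 2, and 2 without liver STAT3koPD-1ko 2 or gut STAT3koPD-1ko 2. It was 4 without liver WT 1 or gut WT 2, and 9 or 10 without 1 of the gut number 1 libraries. TRBV26 and TRBV15 passed without 8 of the 12 libraries in turn, TRBV19 without 6, TRBV14 without 5 and TRBV13-2 without 4, and their highest adjusted p were 0.0774, 0.0774, 0.0798, 0.106 and 0.123. TRBV26 and TRBV15 both lost the call without liver STAT3koPD-1ko 1, liver STAT3ko 2, liver STAT3koPD-1ko 2 or gut STAT3koPD-1ko 2. TRBV19 lost it without the same 4 or without liver WT 1 or gut WT 2. TRBV14 lost it without these 6 or without gut STAT3koPD-1ko 1. TRBV13-2 lost it without the same 6 or without liver STAT3ko 1 or gut STAT3ko 2. None changed sign in any of these fits.

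TRBV1 and TRBV20 separated the numbers of the gut. TRBV1 was 3.53%, 2.58% and 2.84% in gut number 1 and 1.58%, 1.26% and 1.45% in gut number 2, with 2.75 to 3.36% in liver. TRBV20 was 0.885%, 0.766% and 0.684% in gut number 1 and 0.292%, 0.337% and 0.240% in gut number 2, with 0.635 to 0.878% in liver. Gut number 2 lay below every other library for both segments, and gut number 1 lay around the liver values. The gut against liver difference was -0.04 within number 1 and -1.08 within number 2 for TRBV1, and -0.02 and -1.07 for TRBV20. The test of the difference between numbers, on a spread pooled over V segments, gave an adjusted p of 2.99e-07 for each in limma. The pooled comparison of tissues did not pass (adjusted p = 0.0569 and 0.0917) unless number was a replicate block (adjusted p = 0.0159 and 0.0167). Restricted to clonotypes also listed in another genotype, TRBV1 was at 0.06 within number 1 (adjusted p = 0.865) and still passed within number 2, at -0.42 (adjusted p = 0.0462). In that restriction no V segment differed between numbers past the test.

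**Figure D3:**
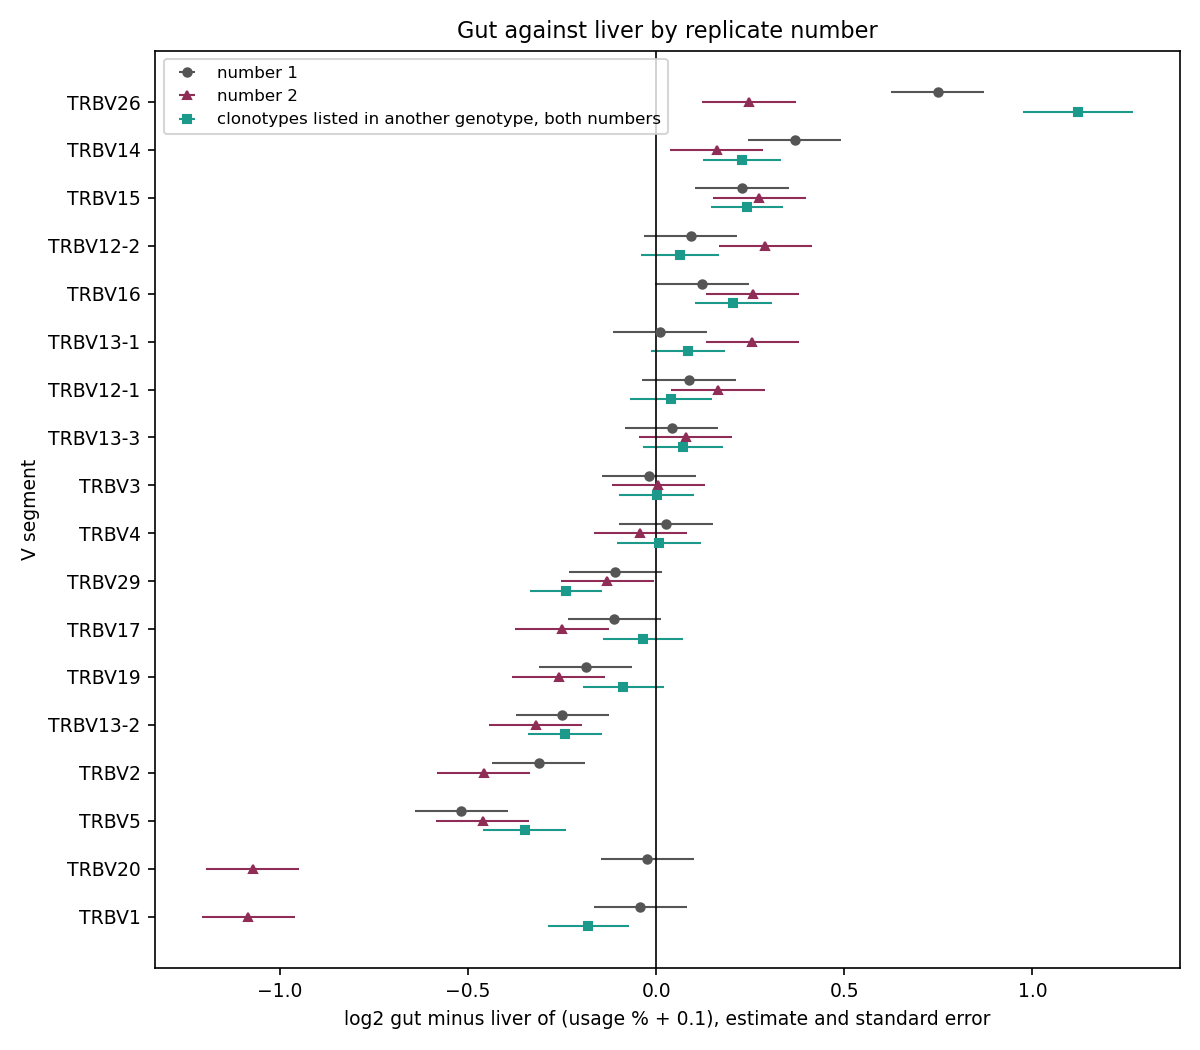
Log2 difference in usage between gut and liver (log2(percent + 0.1), estimate and standard error) for the 18 tested V segments, within number 1 (gray circles), within number 2 (purple triangles) and, for both numbers together, over clonotypes listed in another genotype (green squares, where the segment passed the usage filter). TRBV5 lies between -0.52 and -0.35 in all 3 fits, whereas TRBV1 and TRBV20 lie near 0 in number 1 and near -1.1 in number 2.

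The other V segments did not pass in the main fit. TRBV29, the segment used most, averaged 19.2% ± 1.03 in gut and 20.9% ± 1.25 in liver (SD, n = 6). Both gut libraries lay below both liver libraries in 3 of 3 genotypes, at a log2 difference in usage of -0.12 (limma adjusted p = 0.107). TRBV17 was at -0.18, and TRBV3 and TRBV4 were at -0.01 each. Among segments below the usage filter, TRBV23 was listed at 0.0479 to 0.555% in gut and 0.179 to 0.418% in liver. TRBV30, named after its values were seen, was 0.436%, 0.238% and 0.193% in gut number 1, 0.0357%, 0.167% and 0.0818% in gut number 2, and 0.371 to 0.516% in liver, with both gut libraries below both liver libraries in 3 of 3 genotypes. TRBV21, likewise, was 0.258 to 0.410% in gut number 1, 0.554 to 0.631% in gut number 2 and 0.251 to 0.310% in liver, with both gut libraries above both liver libraries in 3 of 3. Both were below the filter of the main test. TRBV21 passed the filter over clonotypes also listed in another genotype and was at 0.27 (limma adjusted p = 0.0546), with 0.15 within number 1 and 0.39 within number 2 (adjusted p = 0.600 and 0.0516). Most of TRBV21 was 1 short entry, described with the clonotypes.

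J segment usage did not differ past the test between gut and liver. None of the 12 J segments was called in limma (0%), and 2 had an unadjusted p below 0.05. These were TRBJ1-3, at 3.83% ± 0.214 in gut and 3.33% ± 0.406 in liver (SD, n = 6; log2 difference 0.20 ± 0.07, adjusted p = 0.0979), and TRBJ1-5, at 1.38% ± 0.326 and 1.71% ± 0.314 (-0.30 ± 0.11, adjusted p = 0.0979). TRBJ1-5 was 0.924 to 1.22% in gut number 2, below every other library, and 1.47 to 1.82% in gut number 1, inside the liver range of 1.37 to 2.11%. Its difference was -0.08 within number 1 (limma adjusted p = 0.524) and -0.53 within number 2 (adjusted p = 0.000553). With number as a replicate block TRBJ1-5 passed (adjusted p = 0.0440). TRBJ1-3 was similar in both numbers, at 0.19 and 0.21.

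The remaining J segments are given by their means in gut and liver (SD, n = 6 each). In the TRBJ1 cluster, TRBJ1-1 was 13.5% ± 0.844 and 12.9% ± 0.945. TRBJ1-2 was 4.40% ± 0.380 and 4.49% ± 0.369. TRBJ1-4 was 4.74% ± 0.340 and 4.46% ± 0.393, and TRBJ1-6 was 2.78% ± 0.362 and 2.96% ± 0.390. None of these means differed by as much as 1 SD of either tissue. In the TRBJ2 cluster, TRBJ2-7, the most used J segment, was 25.4% ± 2.14 and 25.6% ± 0.511. TRBJ2-1 was 15.8% ± 0.626 and 15.96% ± 0.797, and TRBJ2-5 was 8.91% ± 0.774 and 8.84% ± 0.356. Gut spread more widely than liver in TRBJ2-7, where gut WT 2 and gut STAT3koPD-1ko 2 reached 28.1% and 28.0% and gut number 1 lay at 23.5 to 24.0%. TRBJ2-2 was 5.09% ± 0.460 and 5.02% ± 0.337, TRBJ2-3 was 6.66% ± 0.622 and 7.48% ± 0.848, and TRBJ2-4 was 7.55% ± 0.731 and 7.18% ± 0.629. All 6 gut libraries had less TRBJ2-3 than the liver mean of their genotype, at -0.16 (limma adjusted p = 0.216). The TRBJ1 cluster as a whole held 30.6% ± 1.20 in gut and 29.9% ± 1.43 in liver (SD, n = 6; exact permutation p = 0.241).

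Restricted to clonotypes also listed in another genotype, 2 of 12 J segments passed (16.7%), both higher in gut: TRBJ1-3 at 0.27 and TRBJ1-4 at 0.29 (limma adjusted p = 0.0144 and 0.0134). Without the restriction, the gut against liver difference of TRBJ1-4, TRBJ1-5 and TRBJ2-2 depended on the number, with adjusted p of 0.0493, 0.0296 and 0.0296.

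The D segment calls differed between tissues by less than the gut libraries differed among themselves. TRBD1 was called in 41.0 to 42.4% of the frequency of gut number 1, in 37.9 to 39.8% of gut number 2 and in 39.9 to 42.6% of liver. TRBD2 was called in 26.9 to 29.6%, 27.0 to 29.4% and 26.5 to 28.9%, and no D segment was called in 29.4 to 31.2%, 30.8 to 34.8% and 29.5 to 31.4%. Gut number 2 thus lay below all liver libraries in TRBD1, and gut number 1 lay within them. The differences of means between gut and liver were -1.56, 0.26 and 1.31 percentage points, with exact permutation p of 0.157, 0.685 and 0.296 over the 216 arrangements of tissue labels within genotype. Within number 1 the TRBD1 difference was 0.64 and within number 2 it was -3.77.

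Among listed clonotypes, the joint between V and J was shorter in gut number 2. The mean number of bases between the end of V and the start of J was 8.30 to 8.40 in gut number 1, 7.39 to 7.79 in gut number 2 and 8.30 to 8.65 in liver. All gut number 2 libraries lay below all liver libraries, and gut number 1 lay at the lower end of the liver range. The pooled difference of -0.48 bases had an exact permutation p of 0.0556 (adjusted 0.420), and it was -0.10 within number 1 and -0.87 within number 2. Over clonotypes also listed in another genotype the difference was 0.01.

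V–J pairs were compared for 163 pairs with a mean usage of at least 0.1%, and 2 were called in limma (1.23%, adjusted p below 0.05 on log2(percent + 0.02)), with 28 at an unadjusted p below 0.05. TRBV5–TRBJ2-3 was 0.157%, 0.264% and 0.265% in gut number 1, 0.179%, 0.247% and 0.210% in gut number 2, and 0.255 to 0.854% in liver. Both gut libraries lay below both liver libraries in 3 of 3 genotypes. The log2 difference in usage was -0.92 ± 0.20 (adjusted p = 0.0427), -1.04 within number 1 and -0.79 within number 2. TRBV13-1–TRBJ1-3 was 0.432%, 0.332% and 0.527% in gut number 1, 0.648%, 0.656% and 0.498% in gut number 2, and 0.233 to 0.365% in liver. Here both gut libraries lay above both liver libraries in 3 of 3 genotypes, at 0.81 ± 0.18 (adjusted p = 0.0427), 0.62 within number 1 and 1.01 within number 2, and at 0.39 as percent of all reads (adjusted p = 0.195), where the median pair moved to -0.43. Both pairs also passed over clonotypes listed in another genotype (adjusted p = 0.0403 and 0.0486), where 4 of 147 pairs did (2.72%).

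Leaving out libraries in turn ended most calls of both pairs by their p, while the differences stayed at -1.03 to -0.74 for TRBV5–TRBJ2-3 and 0.69 to 0.93 for TRBV13-1–TRBJ1-3. TRBV5–TRBJ2-3 passed only without liver STAT3koPD-1ko 2, and its adjusted p was 0.0539 to 0.133 without any 1 of the other 11. TRBV13-1–TRBJ1-3 passed only without gut STAT3ko 1, and its adjusted p was 0.0539 to 0.153 without any other. The pairs next in order were TRBV12-2–TRBJ1-1, at 0.586% ± 0.127 in gut and 0.351% ± 0.0436 in liver (SD, n = 6), and TRBV26–TRBJ2-1, at 0.220% ± 0.0602 and 0.131% ± 0.0228. Their limma adjusted p was 0.062 each, and 0.0276 and 0.0414 with number as a replicate block. The most used pairs were similar in both tissues. TRBV29–TRBJ2-7 held 4.47% ± 0.777 in gut and 4.63% ± 0.648 in liver, and TRBV13-1–TRBJ2-7 held 3.51% ± 0.681 and 3.17% ± 0.406.

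Within number 1 no pair passed (0%), with 15 at an unadjusted p below 0.05 in limma. Within number 2, 19 of 163 passed (11.7%), 4 higher (2.45%) and 15 lower (9.2%) in gut, and 9 of the lower pairs used TRBV1 and 2 used TRBV20. TRBV1–TRBJ2-2 was 0.0212%, 0.0373% and 0.00902% in gut number 2 against 0.119 to 0.181% in gut number 1 and 0.116 to 0.197% in liver, and its gut against liver difference depended on the number (adjusted p = 0.00507).

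CDR3 lengths had the same mode in both tissues, at 14 amino acids, counted from the cysteine to the last residue. This length held 30.4%, 30.2% and 30.4% in gut number 1, 30.6%, 31.6% and 32.5% in gut number 2, and 27.7 to 30.4% in liver. Both gut libraries lay above both liver libraries in 3 of 3 genotypes, yet the log2 difference was 0.08 ± 0.03 and its limma adjusted p was 0.174. None of the 8 length classes passed (0%), and 1 had an unadjusted p below 0.05.

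Among listed clonotypes, gut number 2 held fewer long CDR3, and the lengths of clonotypes not listed are unknown. A length of 16 held 2.03 to 3.07% of gut number 2, 5.33 to 6.05% of gut number 1 and 5.35 to 6.44% of liver. A length of 17 held 0.194 to 0.234%, 1.02 to 1.49% and 1.03 to 1.73%. For both lengths gut number 2 lay below every other library. Within number 2 the differences from liver were -1.13 and -2.03 log2, and within number 1 they were -0.11 and -0.07. The numbers differed with adjusted p of 8.78e-05 and 1.56e-05. Over clonotypes also listed in another genotype, the difference at 16 amino acids was 0.03 (adjusted p = 0.798) and no length differed between numbers past the test. The mean length was 13.4 ± 0.142 amino acids in gut and 13.5 ± 0.0266 in liver (SD, n = 6; difference -0.09, exact permutation p = 0.222). Over clonotypes also listed in another genotype this difference was 0.08, at the smallest exact permutation p of 0.00926 (adjusted 0.0741).

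Nearly all TRBV26 clonotypes are absent from these lengths. Of the 2415 TRBV26 clonotypes listed, 2414 had a deposited CDR3 that began upstream of the cysteine, as in the TRBV26 sequence printed above, and such CDR3 were left out of lengths and residues. Cutting them at the cysteine gave the same calls of lengths and residues.

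**Figure D4:**
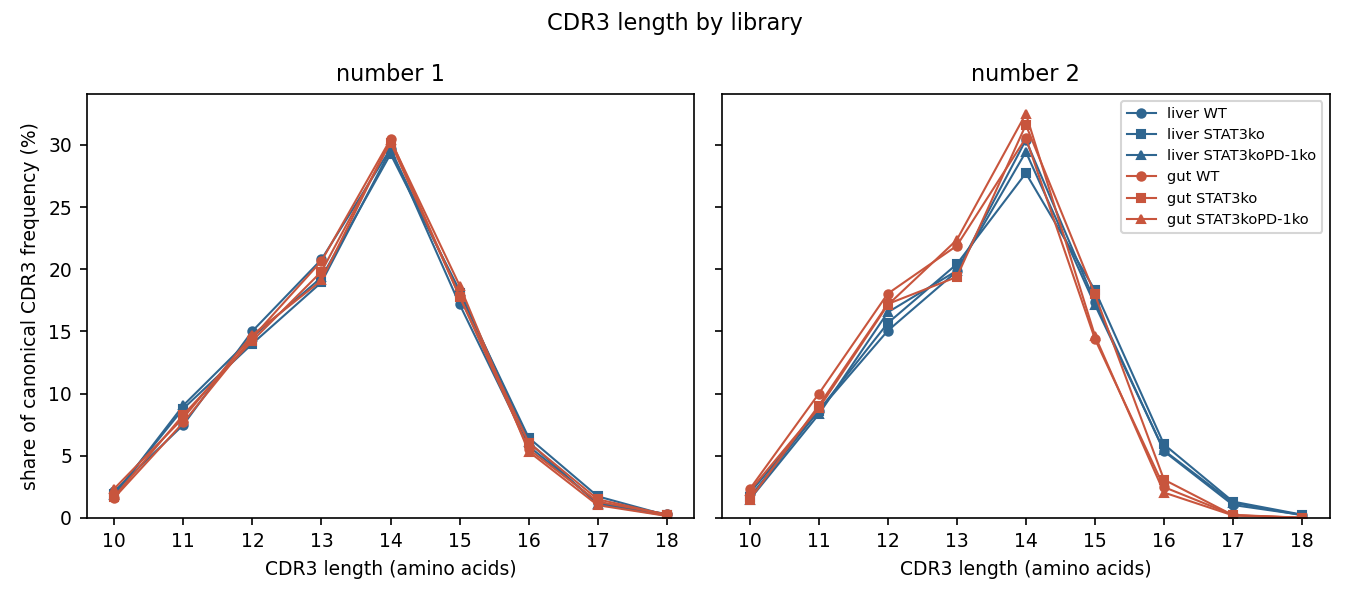
Share of canonical CDR3 frequency (percent) at each CDR3 length (amino acids) in gut (red) and liver (blue) libraries, 1 line per genotype, with number 1 and number 2 in separate panels. In number 1 the lines of both tissues lie over each other, and in number 2 gut lies above liver at 12 amino acids and below it at 16 and 17.

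Central CDR3 residues, the positions left after dropping 4 from each end, were compared for 17 amino acids, and 3 passed in limma (17.6%). Leucine, a hydrophobic residue, was 6.49%, 6.11% and 6.11% in gut number 1, 6.43%, 6.86% and 6.41% in gut number 2, and 5.81 to 6.13% in liver. Both gut libraries lay above both liver libraries in 3 of 3 genotypes, at a log2 difference of 0.11 ± 0.03 (adjusted p = 0.0374). Asparagine, a polar residue, was 7.94 to 8.53% in gut and 7.40 to 8.23% in liver, at 0.11 ± 0.03 (adjusted p = 0.0374), with 6 of 6 gut libraries above the liver mean of their genotype. Isoleucine, a hydrophobic residue, was 0.823 to 1.1% in gut and 1.03 to 1.26% in liver, at -0.24 ± 0.07 (adjusted p = 0.0374), with both gut libraries below both liver libraries in 3 of 3 genotypes.

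These shifts were small, and no residue passed within number 1 (0%, with 3 at an unadjusted p below 0.05 in limma), where the differences were 0.09, 0.09 and -0.11. Within number 2 they were 0.13, 0.12 and -0.38, and 9 of 17 residues passed (52.9%), among them also phenylalanine at -0.36 and histidine at -0.59. Leucine alone passed over clonotypes also listed in another genotype (0.12, adjusted p = 0.0490, 1 of 16 or 6.25%). No residue passed in that restriction when number was also a replicate block. Leaving out 1 library ended the call of leucine in 10 of 12 fits, all except those without gut STAT3ko 1 or gut STAT3koPD-1ko 1, with adjusted p up to 0.106. It ended that of isoleucine in 9 and that of asparagine in 8, with adjusted p up to 0.09995 and 0.106, each kept without any 1 of the gut number 1 libraries and asparagine also without liver STAT3ko 2. With number as a replicate block, alanine (-0.07, adjusted p = 0.0426) and tryptophan (-0.12, adjusted p = 0.0271) passed too. No residue passed without the clonotypes listed in CD4 T cells (0%), where 5 had an unadjusted p below 0.05 in limma.

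By class, acidic residues made up 11.6% ± 0.323 of the central positions in gut and 11.97% ± 0.204 in liver (SD, n = 6), a difference of -0.40 percentage points (exact permutation p = 0.0556, adjusted 0.420). Hydrophobic residues made up 21.3% ± 0.662 and 22.0% ± 0.254, basic residues 5.87% ± 0.626 and 6.42% ± 0.227, and glycine 23.2% ± 0.890 and 22.7% ± 0.345. Their exact permutation p was 0.0833, 0.157 and 0.259. Gut number 2 lay below all liver libraries in hydrophobic, basic and acidic residues and above all of them in glycine. Gut number 1 was 21.8 to 22.0% hydrophobic, 6.35 to 6.50% basic, 11.8 to 11.9% acidic and 22.3 to 23.0% glycine, inside the liver ranges.

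Clonality did not separate the tissues. The Shannon effective number, which is the count of clonotypes a perfectly even repertoire of equal entropy would hold, was 10845 (WT), 11242 (STAT3ko) and 11558 (STAT3koPD-1ko) in gut number 1, 5192, 2985 and 3844 in gut number 2, and 4523 to 8782 in liver. All gut number 1 libraries lay above all liver libraries, and 2 of the 3 gut number 2 libraries lay below them. These numbers cover the listed clonotypes, and 42.0 to 46.8% of the reads of gut number 2 were in clonotypes not listed, against 3.71 to 6.79% in liver and 6.25 to 18.5% in gut number 1. The effective numbers and the shares of large clonotypes of gut number 2 thus describe only the listed part of its repertoire. On the log2 scale the mean difference was 0.08 (exact permutation p = 0.843), made up of 1.00 within number 1 and -0.84 within number 2. With clonotypes restricted to those of another genotype these were 0.94 and 0.10, and 0.52 together (exact permutation p = 0.0556, adjusted 0.296). Clonality, which is 0 when all clonotypes are equally frequent and 1 when there is a single one, averaged 0.0932 ± 0.0141 in gut and 0.0975 ± 0.0125 in liver (SD, n = 6; exact permutation p = 0.574). The inverse Simpson index, which weighs large clonotypes more, was 3115 to 4671 in gut number 1, 595 to 2659 in gut number 2 and 2168 to 4664 in liver (exact permutation p = 0.407).

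The 10 most frequent clonotypes held 2.72%, 2.13% and 3.36% of gut number 1, 2.56%, 8.07% and 6.38% of gut number 2, and 1.40 to 2.90% of liver. Gut STAT3ko 2 and gut STAT3koPD-1ko 2 were the highest of the 12. The mean difference of 1.94 percentage points had an exact permutation p of 0.139. As percent of all reads, the 10 most frequent listed clonotypes held 1.36%, 4.68% and 3.39% of gut number 2 and 1.32 to 2.79% of liver, and the mean difference was 0.63 (exact permutation p = 0.296). Clonotypes above 0.01% held 40.04 to 47.1% of gut number 1, 71.4 to 79.1% of gut number 2 and 57.8 to 74.5% of liver, so the difference from liver was -24.1 percentage points within number 1 and 12.3 within number 2. Over clonotypes also listed in another genotype the difference within number 2 turned to -1.75, with -15.8 within number 1 and -8.78 together (exact permutation p = 0.00926, adjusted 0.0741). As percent of all reads, listed clonotypes above 0.01% held 28.2 to 42.2% of gut number 1, 28.6 to 38.1% of gut number 2 and 51.7 to 70.9% of liver. All gut libraries then lay below all liver libraries, at -26.4 percentage points (exact permutation p = 0.00926, adjusted 0.148 over 16), but reads of clonotypes not listed cannot enter this share and are most frequent in gut number 2. None of the 16 repertoire measures (0%), those of D segments, joints and residue classes included, passed after adjustment. The smallest p that this exact test can give is 0.00926, and a single measure at that p would be adjusted to 0.148 over 16.

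**Figure D5:**
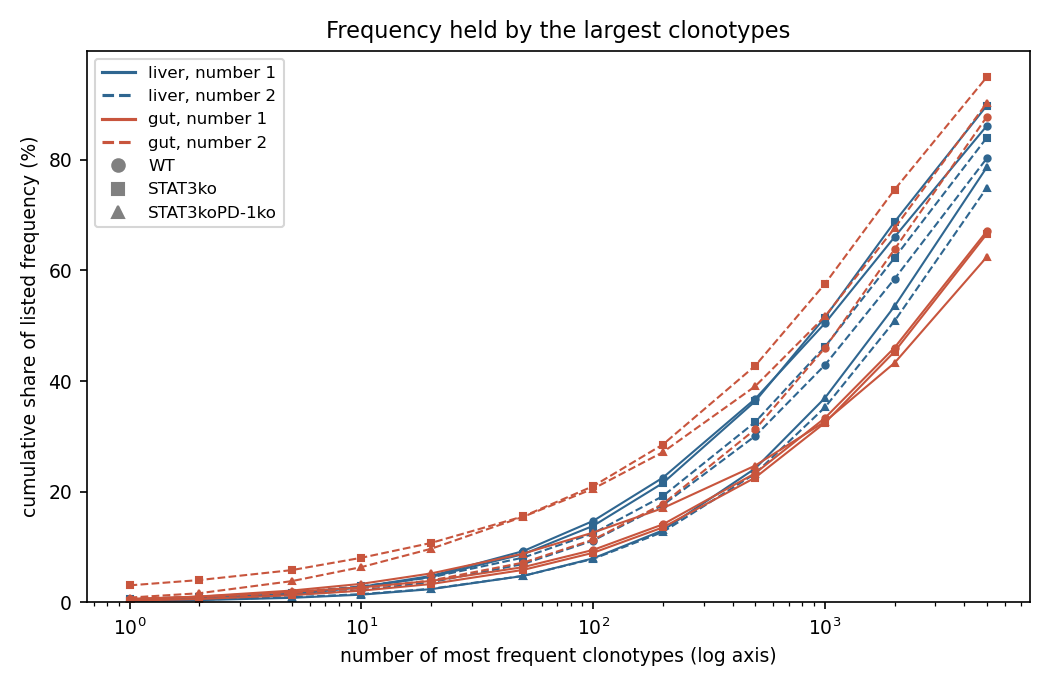
Cumulative share of listed frequency (percent) held by the most frequent clonotypes of each library, with the number of clonotypes on a log axis, liver in blue, gut in red, number 1 solid and number 2 dashed. The 100 most frequent clonotypes held 21.0% of gut STAT3ko 2 and 20.5% of gut STAT3koPD-1ko 2, against 7.86 to 14.7% of the liver libraries.

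Of the 5 most frequent entries in gut, 3 were large in 1 library each. The TRBV13-3–TRBJ2-4 clonotype printed above held 3.08% of gut STAT3ko 2 and 0.00994% of gut WT 2, and was listed at 0 in the other 10 libraries and in spleen. The TRBV29–TRBJ2-7 clonotype of 45 bases held 0.959% of gut STAT3ko 2 and 0.000402 to 0.00662% of 4 further gut libraries, and was listed in 1 liver library, liver STAT3ko 2, at 0.000773%. The TRBV29–TRBJ2-7 clonotype of 36 bases held 0.878% of gut STAT3koPD-1ko 2 and at most 0.00113% of any other. In liver, the TRBV29–TRBJ2-4 clonotype held 0.666% of liver STAT3ko 2, 0.0644% of gut STAT3ko 1 and 0.00340% of gut STAT3koPD-1ko 1, and was listed at 0 elsewhere among the 12. Each of these had its highest value in a number 2 library.

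Other frequent clonotypes were common to both tissues. The TRBV19–TRBJ2-7 clonotype was listed in all 12 libraries, at 0.0784 to 0.318% in gut with a median of 0.113% and at 0.0496 to 0.213% in liver with a median of 0.142%. The TRBV29–TRBJ1-1 clonotype was at 0.0704 to 0.154% in gut and 0.0776 to 0.183% in liver, and the TRBV17–TRBJ2-7 clonotype at 0.0321 to 0.164% and 0.0465 to 0.268%. In each case the gut and liver ranges overlapped. A TRBV21–TRBJ2-1 read of 18 bases, too short to be a CDR3 with a cysteine, was the second most frequent entry in gut, at 0.237 to 0.390% in gut number 1 and 0.539 to 0.606% in gut number 2, and the first in liver, at 0.234 to 0.290%.

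Of the 5403 clonotypes listed in at least 6 of the 12 libraries, none was called between gut and liver in limma (0%), and 235 had an unadjusted p below 0.05. The lowest p belonged to the TRBV26–TRBJ1-1 clonotype printed above. It was 0.000746% (WT), 0.00402% (STAT3ko) and 0.128% (STAT3koPD-1ko) in gut number 1 and 0.00265%, 0.00665% and 0.0276% in gut number 2, and in liver it was listed in liver WT 2 alone, at 0.000427%. It reached the limit of 6 libraries through gut, so that the separation of the tissues is partly set by that limit and is a description. The fitted log2 difference was 3.21 ± 0.79 on the log2(percent + 0.001) scale, with a limma adjusted p of 0.991. The next 3 were a TRBV12-1–TRBJ2-7, a TRBV29–TRBJ1-1 and a TRBV29–TRBJ1-6 clonotype, at 2.60, 2.97 and 2.41, and each had an adjusted p of 0.991 too.

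The difference between gut and liver was also compared between genotypes. No V segment, J segment or V–J pair passed the limma test of tissue by genotype (0% of 18, 12 and 163), and 0, 1 and 4 had an unadjusted p below 0.05. With 2 libraries for each tissue and genotype, a p that misses the threshold does not show that the genotypes were alike.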

How the data were processed

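TCRB transcripts of sorted donor CD8 T cells were amplified with a template-switching TCR kit and sequenced as paired reads; the authors called clonotypes with MiXCR and joined the libraries with VDJtools. The deposited values are fractions of the reads of a library per clonotype; the authors also give the count of joined samples holding each clonotype, and the columns of segment positions were used to find the bases between V and J. Genome build mm10 stands in the submitters' processing notes. Depth is unknown, reads are not cells, and how reads were split between similar V segments is not given in the sources used here.

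Groups came from the labels. Fractions were divided by their sum per library. Usage, as log2(percent + pseudocount), went into limma 3.58.1 (R 4.3.3), with the pseudocount 0.1 (V, J, lengths, residues), 0.02 (V–J pairs) or 0.001 (clonotypes), for features with a mean of at least 0.5%, or 0.1% for pairs, with tissue and genotype as terms and Benjamini-Hochberg adjustment over each family of features. Fold changes on this scale understate changes of rare features. For the 16 repertoire measures, tissue labels were permuted exactly within each genotype (two-sided, Python 3.11.15). All tests were made within the CD8 TCRB table. CDR3 lengths and residues used CDR3 that run from cysteine to F, W or L.

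The text names every V segment past the threshold, the superantigen list, TRBV23, TRBV5 and TRBV2, all J and D segments, called pairs, residues and clonotypes (or those of lowest p), and the 5 most frequent clonotypes of each tissue. TRBV1, TRBV20, TRBV21, TRBV30 and the most used pairs were added after their values were seen. The members and lists were chosen with earlier results of these data known. The scripts were tested on simulated data. Alternatives were another pseudocount, filter, weight, scaling, genotype term or recurrence limit, the replicate block, each number alone and each library left out. Restrictions to clonotypes of another genotype or not listed in CD4, TRBV26 CDR3 cut at the cysteine, and large clonotypes as percent of all reads, were chosen after seeing the data.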

Additional observations from a re-analysis of the deposited data

Results flagged for a closer look

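A difference between gut and liver that depended on the label number was found for 13 features, each as number 2 minus number 1 on the log2 scale with a limma adjusted p below 0.05. They were TRBV1 (-1.04), TRBV20 (-1.05) and TRBV26 (-0.50) among V segments, TRBJ1-4 (-0.31), TRBJ1-5 (-0.44) and TRBJ2-2 (-0.30) among J segments, and the pair TRBV1–TRBJ2-2 (-2.36). Among CDR3 lengths they were 16 (-1.01) and 17 amino acids (-1.96), and among central residues glutamic acid (-0.21), phenylalanine (-0.39), histidine (-0.68) and tyrosine (0.19). None of these passed over clonotypes also listed in a library of another genotype. TRBV20, the pair TRBV1–TRBJ2-2, 17 amino acids and histidine fell below the filter there and had no value.

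In 3 cases 1 library stood apart from the other 5 of its tissue. TRBV12-2 was 9.56% in gut STAT3koPD-1ko 2 against a median of 7.09% in the others. TRBD1 calls were 39.9% in liver STAT3koPD-1ko 1 against 42.2%, and hydrophobic central residues were 21.5% in liver STAT3ko 2 against 22.1%. Such gaps were looked for in 92 groups of 6, and chance alone flags about 1 in 20.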

How the results depend on the processing

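The main counts of calls were 7 V segments, 0 J segments, 2 V–J pairs, 0 lengths, 3 residues, 0 clonotypes and 0 of 16 measures. Counts of V segments fell to 3 with each clonotype counted once, without clonotypes listed in CD4, with no genotype term or within number 1, and to 2 over clonotypes of at least 3 libraries or without those of the libraries before HCT. J segments reached 1 without the 10 most frequent clonotypes or within number 2, and 2 as percent of all reads. Pairs went to 0 with no filter, with canonical CDR3 alone, without clonotypes of the libraries before HCT or of CD4, with no genotype term or within number 1, to 1 with each clonotype counted once or over at least 3 libraries, to 4 without the 10 most frequent, and to 19 within number 2. Lengths reached 1 without clonotypes of the libraries before HCT and 3 within number 2. Residues went to 0 with each clonotype counted once, without clonotypes of the libraries before HCT or of CD4, or within number 1, to 1 with all CDR3, and to 9 within number 2. Over clonotypes also listed in another genotype, 2 V segments, 2 J segments, 4 pairs and 1 residue were called, and tissue by genotype 1. Within number 1 this restriction left 1 V segment, 1 J segment, 0 pairs and 0 residues, and within number 2 it left 2 V segments, 0 pairs, 0 residues and 1 length. The 13 features whose difference depended on the number became 46 with each clonotype counted once, 8 without clonotypes of the libraries before HCT, 74 as percent of all reads and 0 over clonotypes also listed in another genotype. The causes were not tested.

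No label ties same-numbered gut and liver libraries beyond the number. Their deviations from the group means correlated at 0.13 to 0.30 over V segments, 0.09 to 0.41 over J segments and -0.18 to 0.16 over pairs. All 3 genotypes were over 0.1 for V segments but not for J segments or pairs, so the unblocked fit was kept. With number as a replicate block, 9 V segments (the 7 with TRBV1 and TRBV20), 1 J segment (TRBJ1-5), 4 pairs and 5 residues passed, and with genotype and number as blocks 10 V segments and 1 J segment. With the restriction to another genotype and the replicate block, 2 V segments, 2 J segments, 4 pairs and 0 residues passed.

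Leaving out 1 library gave 1 to 10 V segments, 0 to 1 J segments, 0 to 1 pairs, 0 to 4 residues, 0 to 1 tissue by genotype calls and 7 to 15 that depended on the number, and 0 lengths, 0 clonotypes and 0 measures in every case. The tissue by genotype call came without gut STAT3ko 1.

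Directions were followed where the main unadjusted p was below 0.05. They turned as percent of all reads for TRBV12-2 (-0.25), TRBV14 (-0.17), TRBV15 (-0.17) and TRBJ1-3 (-0.23), a scaling that moved the median V segment to -0.43 and the median J segment to -0.44, and without clonotypes listed in CD4 for TRBV26 (-0.015). Of the single results under all alternatives, 1148 kept direction and side of the threshold, 183 lost the threshold and 17 gained it. Fractions without counts give no depth, so rare clonotypes listed at 0 cannot be told from absent ones.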
